A study of Mus musculus with 8 samples.

Results

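The genes described are the scaffold genes Dlg1, Dlg2, Dlg3 and Dlg4 and the anchoring protein gene Akap5, 5 of the 55401 genes in the deposited count table. They were chosen by name, and each was found in the table by matching its Ensembl gene to the RefSeq gene of that symbol on GRCm38. In RNA immunoprecipitation (RIP) an antibody pulls its target protein out of a tissue extract, and the RNA held with it is sequenced. The series holds 8 libraries from C57BL/6 mouse tissue labelled hippocampus. There were 3 libraries made with an antibody against CaMKIIβ (CaMKIIβ RIP), 3 made with control IgG (IgG RIP) and 2 of RNA that was not immunoprecipitated (Input). No treatment, genotype, age or sex is named for any group, and nothing says how many animals stand behind a library, so p-values measure the spread between libraries, which may be technical.

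The Dlg proteins are membrane-associated guanylate kinases (MAGUKs), in which PDZ domains, an SH3 domain and a catalytically inactive guanylate kinase-like domain sit side by side. At excitatory synapses they hold glutamate receptors, adhesion molecules and signalling enzymes beneath the postsynaptic membrane. Akap5 encodes an anchoring protein that ties protein kinase A, protein kinase C and the phosphatase calcineurin to the same scaffolds. CaMKII is an abundant kinase of these synapses, and the series title gives long non-coding RNAs bound by its β subunit as the subject, a class to which these 5 protein-coding genes do not belong.

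Total counts per library were 17273957 to 25299903 in CaMKIIβ RIP, 22061623 to 28138289 in IgG RIP, and 17776157 and 21359418 in Input. CaMKIIβ RIP replicate 2 stood apart. It had counts for 19247 genes, against 24865 to 28458 in the other RIP libraries, and its chi-square distance per gene from the other libraries of its group was 43.6 and 53.7. Replicates 1 and 3 of that group were also further apart, at 27.4, than any IgG RIP libraries, at 5.69 to 12.4. The tissue label was checked against marker genes. Summed over 9 cerebellar granule cell markers, the Input libraries held 836 and 853 scaled counts per kilobase of exon (defined below), and over 10 telencephalic and hippocampal markers 67.2 and 67.3. No named marker of either list was at 0 in any library. The sums are over unlike genes and do not give the share of either tissue. By the first sum, the levels below belong to tissue in which transcripts of cerebellar marker genes were abundant.

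Each of the 5 genes lies on the plus strand of GRCm38. Dlg1 (ENSMUSG00000022770.17), which encodes SAP97, spans chromosome 16, 31663443 to 31875129, and has 10736 bases of exon in 31 separate blocks. Dlg2 (ENSMUSG00000052572.19), which encodes the scaffold also called chapsyn, spans 1972576 bases of chromosome 7, 90476672 to 92449247, with 17870 bases of exon in 38 blocks. Dlg3 (ENSMUSG00000000881.12), which encodes SAP102, lies on chromosome X, 100767722 to 100818410, with 5844 bases of exon in 23 blocks. Dlg4 (ENSMUSG00000020886.17), which encodes PSD-95, the most studied scaffold of the excitatory postsynapse, lies on chromosome 11, 70016942 to 70047522, with 13251 bases of exon in 27 blocks. Akap5 (ENSMUSG00000021057.15) is compact, at chromosome 12, 76324891 to 76334153, with 6824 bases of exon in 2 blocks. No exon of Dlg1, Dlg3, Dlg4 or Akap5 overlapped an exon of another gene in the table. In Dlg2, 225 exon bases were shared with 2 other genes on the same strand, where the count could be split or lost.

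Levels were compared between genes only per kilobase of exon, as CPM per kilobase, where CPM, a gene's counts in parts per mega-count of its library, was scaled by TMM over all 8 libraries. Exon length here is the union of all annotated exons, so a gene with many alternative exons is placed too low. In Input the order was Dlg4, Dlg2, Dlg3, Dlg1 and Akap5, at 34.4 ± 2.76, 25.1 ± 1.18, 20.9 ± 1.15, 15.6 ± 1.47 and 7.40 ± 0.0012 CPM per kilobase (SD, n = 2). No neighbours in that order overlapped between the Input libraries. In IgG RIP the order was the same, from 45.1 ± 2.89 for Dlg4 to 5.46 ± 0.078 for Akap5 (SD, n = 3). In CaMKIIβ RIP, Dlg2 at 24.8 ± 2.21 and Dlg3 at 24.0 ± 0.80 overlapped, from 22.6 to 27.0 and from 23.2 to 24.8 (n = 3), and could not be ordered. Without replicate 2 they did not overlap, though they came as close as 24.9 and 24.8. Dlg4 was thus the highest and Akap5 the lowest of the 5 in every group, on the scale of level per exon length.

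IgG RIP against Input sets the RNA that came down with a control antibody beside the starting RNA, and it separated the 5 genes. Dlg4, Dlg3 and Dlg2 were higher in IgG RIP, and Dlg1 and Akap5 were lower, all by less than 1.5-fold (edgeR quasi-likelihood test, Benjamini-Hochberg adjusted p under 0.05), though Dlg2 turned slightly lower when libraries were scaled by their totals alone. In this comparison 38.7% of the 22342 genes tested were past that threshold, 20.1% higher and 18.7% lower, so calls were common among genes at large. DESeq2 and limma-voom also called 5 of the 5, 3 higher and 2 lower, where they called 36.3% and 39.8% of genes tested. All 5 genes passed the count filter here and in the other comparisons. The groups did not overlap for 5 of 5 genes, against 60.5% of all genes tested. Over the 5 genes the median log2 fold change was 0.19, and over all genes tested it was -0.02.

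Dlg4 was at 481 and 430 CPM in the Input libraries and at 601, 559 and 635 CPM in IgG RIP. Each IgG RIP library lay above both Input libraries. The log2 fold change was 0.45 ± 0.07 (SE), 1.36-fold, with an adjusted p of 5.89e-05 by edgeR, and 75.1% of protein-coding genes tested had a smaller log2 fold change. Dlg3, the MAGUK whose gene is X-linked, was at 127 and 117 CPM in Input and 143, 139 and 151 CPM in IgG RIP. Its log2 fold change was 0.30 ± 0.07, with an adjusted p of 0.00247 by edgeR. All 3 IgG RIP values were again above those of Input. Dlg2 was at 463 and 433 CPM in Input and 510, 495 and 472 CPM in IgG RIP, and the groups were separated by less than the spread within either. Its log2 fold change of 0.19 ± 0.06 had an adjusted p of 0.0206 by edgeR. Scaled by library size alone, Dlg2 turned to -0.035 and Dlg3 was at 0.07, neither past the threshold (adjusted p of 0.697 and 0.448 by edgeR), while Dlg4 stayed past it at 0.22. That scaling moved the median over all genes from -0.02 to -0.25. The calls over all genes went from 4483 higher and 4170 lower to 2714 and 6345. Computed over all 8 libraries, TMM factors were 1.09 in both Input libraries and 0.951 to 0.979 in IgG RIP. The fit itself took TMM factors from its own libraries.

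Dlg1, which also serves cell contacts in epithelia, moved the other way. It was at 156 and 179 CPM in Input and at 132, 135 and 135 CPM in IgG RIP. The IgG RIP libraries were close together and below both Input libraries, which themselves lay further apart. The log2 fold change was -0.27 ± 0.07 (adjusted p = 0.00538 by edgeR). Akap5 was at 50.5 CPM in both Input libraries and at 37.8, 37.1 and 36.8 CPM in IgG RIP. The 2 groups were each tight and well apart, at a log2 fold change of -0.38 ± 0.09 (adjusted p = 0.00208 by edgeR). Scaled by library size alone, both were lower still, at -0.50 and -0.61. Without Input replicate 2 the calls of Dlg1 (-0.17), Dlg2 (0.14) and Dlg3 (0.24) no longer passed, and those of Dlg4 (0.37) and Akap5 (-0.39) did, where 23.8% of all genes tested passed. Without IgG RIP replicate 1, Dlg2 (0.17) did not pass. In the fit of all 8 libraries, only Dlg4 of the 5 passed (0.39), where 15.9% of all genes tested did. The others were at 0.24 (Dlg3), 0.14 (Dlg2), -0.32 (Dlg1) and -0.44 (Akap5). The spread of the CaMKIIβ RIP libraries and scaling over 8 libraries entered that fit. The CPM printed share that scaling, while the fold changes of each comparison were scaled on its own libraries.

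**Figure D1:**
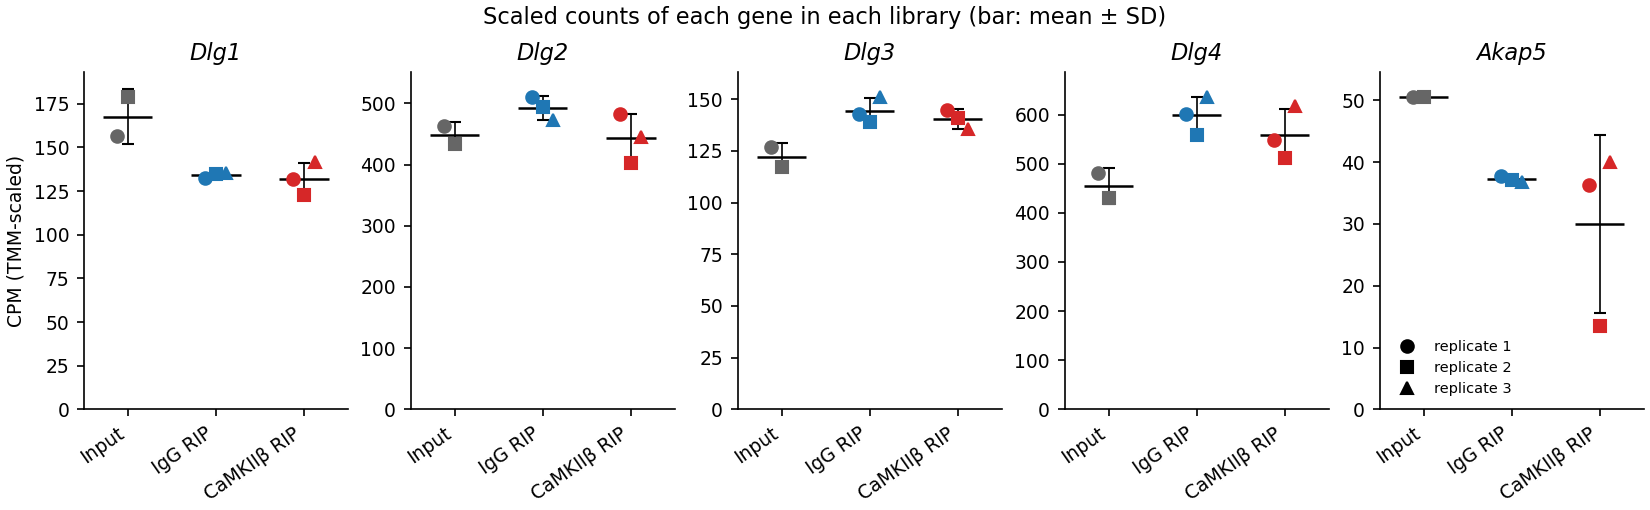
TMM-scaled CPM (y axis, from 0) of each gene in every library, by group on the x axis; marker shape gives the replicate number, and the black line and bar are the group mean ± SD (n = 2 Input, n = 3 in each RIP group). On this scale Dlg4 and Dlg3 lay above Input in every RIP library and Dlg1 and Akap5 below it. The single low point of Akap5 is CaMKIIβ RIP replicate 2, at 13.4 CPM.

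CaMKIIβ RIP against Input asks the same of the CaMKIIβ antibody. By edgeR, 0 of the 5 genes were past the threshold, where 8.45% of 22095 genes tested were (5.06% higher, 3.4% lower). An unadjusted p under 0.05 by edgeR was reached by 2 of them, Dlg1 and Dlg4, and by 4984 of all 22095 genes tested. DESeq2 called 1 of the 5, Dlg4, where it called 25.5% of the 13527 genes it gave an adjusted p, and limma-voom called 0, where it called 12.1% of genes tested. Without Input replicate 2, edgeR called 0 of the 5 and 1.7% of genes tested. The groups did not overlap for 4 of the 5 genes, all but Dlg2, against 47.4% of all genes tested. The median log2 fold change was -0.01 over the 5 genes and -0.12 over all genes tested.

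Dlg4 was at 547, 512 and 617 CPM in CaMKIIβ RIP, each above the Input values of 481 and 430. Its log2 fold change was 0.30 ± 0.12 (SE; 95% interval 0.017 to 0.58), with an adjusted p of 0.195 by edgeR. Without CaMKIIβ RIP replicate 2 it was 0.42, with an adjusted p of 0.0405 by edgeR, in a fit where 18.7% of all genes tested passed. Dlg3 was at 145, 141 and 136 CPM, above the 127 and 117 of Input, at a log2 fold change of 0.20 ± 0.11 that did not pass, with or without replicate 2 (0.27 without it). Dlg2 was at 482, 403 and 445 CPM and so lay on both sides of its Input values of 463 and 433. Its log2 fold change was -0.01 ± 0.11, and 0.11 without replicate 2. Dlg1 was at 132, 123 and 141 CPM, below its Input values of 156 and 179, at -0.34 ± 0.12 (adjusted p = 0.145 by edgeR), and -0.23 without replicate 2. Dlg1 passed when scaled by library size alone (-0.51, adjusted p = 0.0401 by edgeR), where 9.25% of all genes tested did. It also passed in the fit of all 8 libraries, where 16.6% did. With library size alone, Dlg4 was at 0.13, Dlg3 at 0.04 and Dlg2 at -0.18 (adjusted p of 0.590, 0.893 and 0.378 by edgeR). Scaled that way, CaMKIIβ RIP overlapped Input for Dlg4, at 523, 510 and 598 against 524 and 468 CPM. So did Dlg3, at 138, 140 and 132 against 138 and 128 CPM. The Input libraries are shared with the comparison of IgG RIP, so the values of both comparisons are not independent.

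Akap5 varied most between CaMKIIβ RIP libraries. It was at 36.4, 13.4 and 40.0 CPM in replicates 1, 2 and 3, from 879, 231 and 831 counts. Replicate 2 thus held 0.351 of the mean of the other 2 libraries. Of 2609 protein-coding genes within 1.5-fold of that mean level, 0.537% had a ratio as low in this library, and 3.22% had one below 0.5. The same ratio was 0.900 for Dlg1, 0.870 for Dlg2 and 0.880 for Dlg4, and Dlg3 was level with the other libraries, at 141 against 140.3 CPM. Against Input the log2 fold change of Akap5 was -0.75 ± 0.40 (adjusted p = 0.347 by edgeR), and without replicate 2 it was -0.34 (adjusted p = 0.103). Replicates 1 and 3 alone were near the IgG RIP values of 36.8 to 37.8 CPM. The part of the low gene detection of replicate 2 in this value was not tested.

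CaMKIIβ RIP against IgG RIP is the comparison in which the antibody's target is the variable. By edgeR, 0 of the 5 genes were past the threshold and 0 had an unadjusted p under 0.05. Of all 20566 genes tested, 0% were past the threshold and 721 had an unadjusted p under 0.05. DESeq2 and limma-voom also called 0 genes, with 907 and 777 such p values, 0 of them among the 5. The groups overlapped for all 5 genes, where they did not for 11.9% of genes tested. The log2 fold changes were -0.01 ± 0.10 for Dlg1, -0.14 ± 0.09 for Dlg2, -0.03 ± 0.09 for Dlg3, -0.09 ± 0.10 for Dlg4 and -0.30 ± 0.32 for Akap5 (SE, n = 3 each), with adjusted p of 0.982 to 0.997. The median over the 5 genes was -0.09, and over all genes tested -0.02.

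The intervals set what could have been missed. The 95% interval ran from -0.22 to 0.21 for Dlg1, from -0.34 to 0.066 for Dlg2, from -0.23 to 0.18 for Dlg3 and from -0.30 to 0.13 for Dlg4 on the log2 scale. An excess of any Dlg transcript with the CaMKIIβ antibody above 0.21, relative to the scaled library, thus lay outside its interval. For Akap5 the interval ran from -1.02 to 0.42, and without CaMKIIβ RIP replicate 2 its value was 0.046 (adjusted p = 0.967 by edgeR). Without that library the Dlg genes were at 0.037 (Dlg1), -0.078 (Dlg2), -0.031 (Dlg3) and -0.031 (Dlg4), and 0 genes passed. Levels were scaled within each library, so a difference between antibodies in the total RNA recovered could not be seen.

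**Figure D2:**
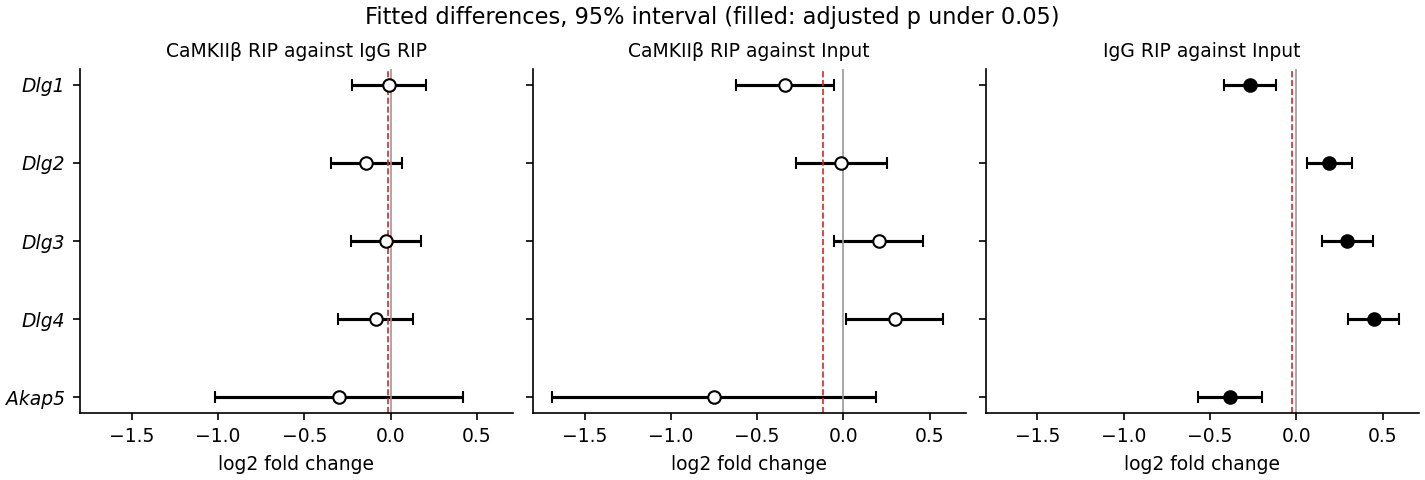
Log2 fold change (x axis) of each gene (y axis) in the 3 comparisons, with the 95% interval of the edgeR fit; filled points had an adjusted p under 0.05, the grey line is 0 and the dashed red line the median over all genes tested. All 5 points are filled in IgG RIP against Input, with Dlg1 and Akap5 to the left and Dlg2, Dlg3 and Dlg4 to the right (Dlg2 was at -0.035 when scaled by library size alone), and the interval of Akap5 is the widest in both comparisons that hold CaMKIIβ RIP replicate 2.

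The balance among the Dlg genes does not depend on how libraries were scaled. Dlg4 made up 36.9% and 34.7% of the summed Dlg1 to Dlg4 level per kilobase in the Input libraries. It made up 41.0%, 39.7% and 42.5% in IgG RIP and 39.2%, 39.9% and 43.2% in CaMKIIβ RIP. Dlg1 made up 14.8% and 17.8% in Input, 11.1%, 11.8% and 11.2% in IgG RIP, and 11.7%, 11.8% and 12.2% in CaMKIIβ RIP. For both genes all 6 RIP libraries lay on the same side of Input. The shares of a library add up to its whole, so a lower share of Dlg1 raises the others. How often shares of other genes separate RIP from Input was not tested. Dlg2 (26.1% ± 0.24 in Input, 25.1% ± 1.46 in IgG RIP and 24.0% ± 1.39 in CaMKIIβ RIP) and Dlg3 (21.8% ± 0.38, 22.5% ± 0.42 and 23.3% ± 1.69; SD) held steadier shares.

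Counted against each other, Dlg4 held 3.08 and 2.40 times the counts of Dlg1 in the Input libraries, 4.54, 4.15 and 4.70 times in IgG RIP, and 4.15, 4.16 and 4.36 times in CaMKIIβ RIP. On the log2 scale the ratio rose from 1.44 ± 0.25 in Input to 2.16 ± 0.09 in IgG RIP, a difference of 0.71, and to 2.08 ± 0.04 in CaMKIIβ RIP, a difference of 0.64. Neither RIP group overlapped with Input. A two-sided exact permutation test over libraries gave p = 0.1 for each, the smallest that 3 against 2 libraries allow, and 0.3 when adjusted over the 9 ratio tests made. Between the antibodies the difference was -0.08 (exact permutation p = 0.3). The ratio of Dlg4 to Dlg2 differed from Input by 0.26 in IgG RIP and 0.31 in CaMKIIβ RIP, and that of Dlg4 to Dlg3 by 0.15 and 0.09. The exact permutation p of these 4 was 0.1 to 0.9.

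**Figure D3:**
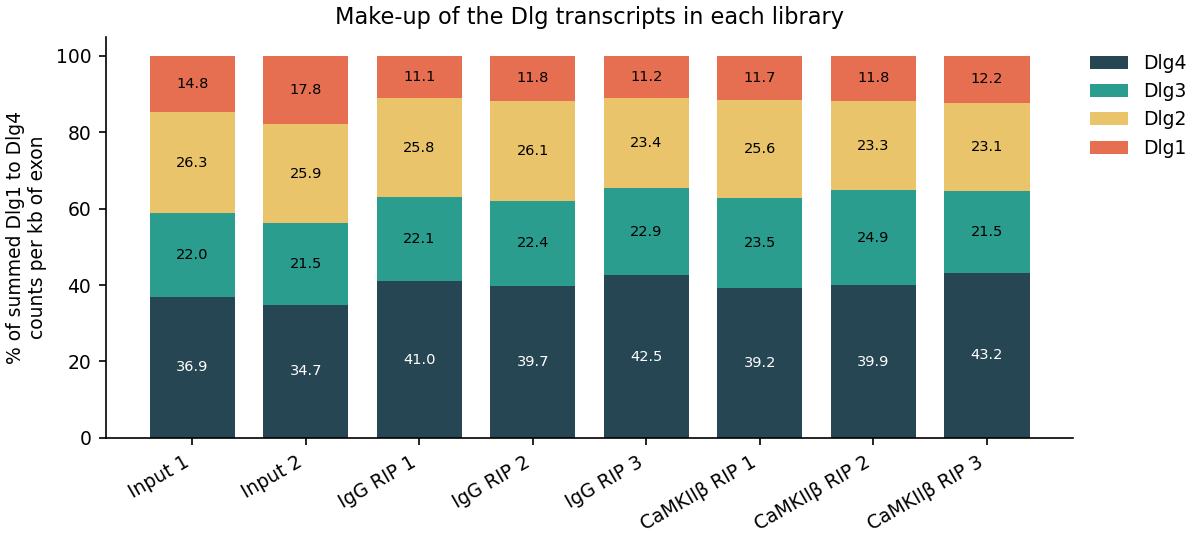
Share of each Dlg gene in the summed counts per kilobase of exon of Dlg1 to Dlg4 (y axis, percent) in each of the 8 libraries (x axis). The band of Dlg1 was 14.8% and 17.8% in the Input libraries and 11.1% to 12.2% in the RIP libraries, and that of Dlg4 was 34.7% and 36.9% against 39.2% to 43.2%.

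The 5 genes are long, and exon length moved with the difference between RIP and Input. By exon length they stood between the percentiles 65.9 (Dlg3) and 98.7 (Dlg2) of protein-coding genes tested in IgG RIP against Input. The median log2 fold change of protein-coding genes in that comparison was -0.12 for the 287 genes of up to 1000 exon bases and 0.18 for the 864 of more than 12000. In the same bins 5.57% and 47.3% of genes were past the threshold as higher, and 22.3% and 27.2% as lower. Set against a loess trend on exon length, Dlg4 lay 0.33 above the trend and Dlg3 0.27 above it. The trend was fitted over all genes tested, protein-coding or not, so it was not the protein-coding median of a length bin. At Dlg3 the trend was 0.023, where that median was 0.113, so Dlg3 lay less far above protein-coding genes of like length. Dlg2 lay 0.04 above, close to the trend for its length. Dlg1 lay 0.36 below the trend and Akap5 0.42 below. At Akap5 the trend was 0.040, where the protein-coding median of its bin was 0.099, so Akap5 lay further below protein-coding genes of like length. Dlg1, Dlg2, Dlg3 and Dlg4 all lay between the quartiles of protein-coding genes in their length bins. Akap5, at -0.38, lay below the lower quartile of its bin, -0.32. The part of exon length in the values of the 5 genes was not tested further. In CaMKIIβ RIP against Input the distances from the trend were 0.29 for Dlg4, 0.28 for Dlg3, -0.05 for Dlg2, -0.33 for Dlg1 and -0.69 for Akap5. There the trend at Dlg3 was -0.074, and the protein-coding median of its length bin was 0.039. Dlg1, Dlg2, Dlg3 and Dlg4 again lay between the quartiles of their bins, and Akap5 below the lower quartile of its own.

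**Figure D4:**
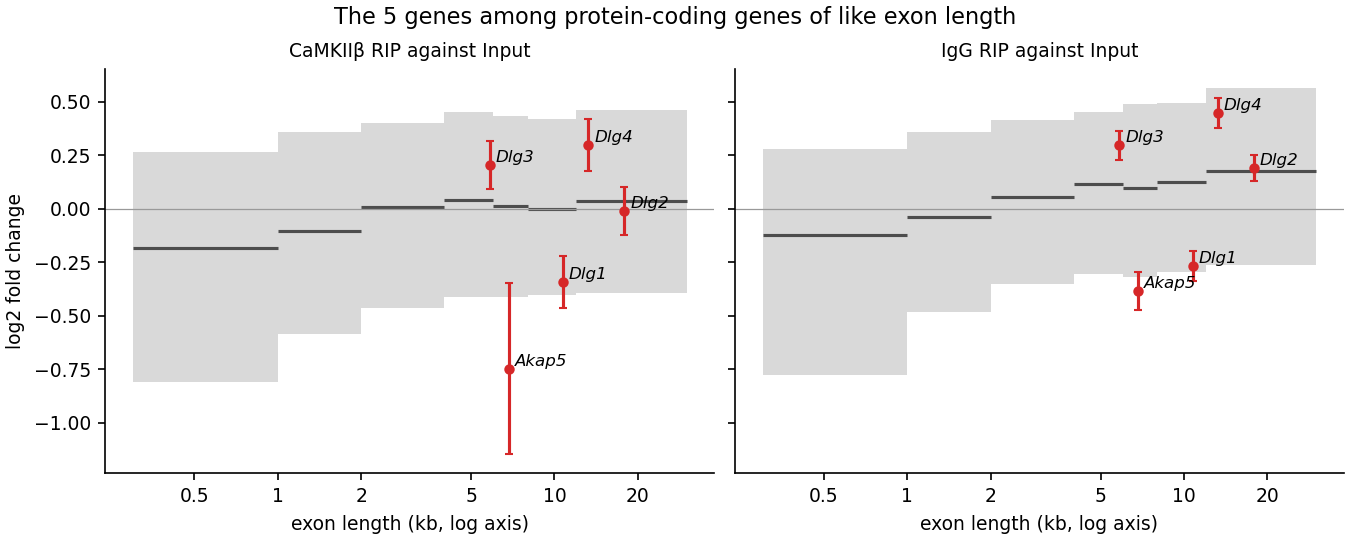
Log2 fold change against Input (y axis) by exon length (x axis, log axis, drawn from 0.3 to 30 kb) in CaMKIIβ RIP and IgG RIP; red points are the 5 genes ± SE, black lines the median and grey bands the middle 50% of protein-coding genes tested in each length bin. In IgG RIP Dlg2 lay close to the median of its bin, Dlg4 and Dlg3 above theirs, and Dlg1 and Akap5 below. In both panels Dlg1, Dlg2, Dlg3 and Dlg4 lay inside the grey band of their bins, and Akap5 lay below its band. The medians drawn are not the loess trend given in the text.

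Markers of other cell types moved along with the RIP comparisons. The summed level of 5 astrocyte markers was 389 and 399 CPM per kilobase in Input, 805 to 907 in IgG RIP and 730 to 853 in CaMKIIβ RIP, and 5 of 5 were higher in IgG RIP than in Input. That of 9 granule cell markers was 985 to 1027 in IgG RIP and 975 to 1025 in CaMKIIβ RIP, against 836 and 853 in Input, but this was carried by Fat2 (log2 fold change 1.55 ± 0.06 in IgG RIP against Input). Without Fat2, a marker left out after the values were seen, the other 8 summed to 732 and 742 in Input, 691 to 714 in IgG RIP and 679 to 755 in CaMKIIβ RIP. In IgG RIP 3 of the 9 were higher and 2 lower, Gabra6 (-0.88 ± 0.06) and Zic1 (-0.16 ± 0.06). That of 6 Purkinje cell markers was 594 and 628 in Input, 434 to 477 in IgG RIP and 433 to 454 in CaMKIIβ RIP, with 2 of 6 higher and 3 lower in IgG RIP. Over all genes tested in IgG RIP against Input, 20.1% were higher and 18.7% lower. The part of these shifts in the values of the 5 genes was not tested, and in bulk RNA fewer cells of a type and less RNA per cell cannot be told apart.

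The Dlg genes were set beside other members of the MAGUK superfamily, which share the guanylate kinase-like domain but serve cell junctions, polarity or calcium channels. Of 22 such genes tested in IgG RIP against Input, 8 were higher and 3 lower, with a median log2 fold change of 0.16. That was 50% of them, against 38.7% of all genes tested (20.1% higher, 18.7% lower). The tight junction scaffold Tjp1 (1.93 ± 0.07) and the polarity scaffold Dlg5 (0.79 ± 0.09) rose, and the calcium channel β subunit Cacnb4 fell (-0.82 ± 0.06). In CaMKIIβ RIP against Input 4 rose and 1 fell (7 and 1 without replicate 2), among them Tjp1 (1.57 ± 0.15), Cacnb4 (-0.85 ± 0.11) and Dlg5 (0.79 ± 0.12). Past the threshold there were 22.7% of the list and 8.45% of all genes tested, and without replicate 2 18.7% of all genes. Tjp1 was at 133 CPM in Input, 487 in IgG RIP and 393 in CaMKIIβ RIP (group means).

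Of 30 receptors and adhesion proteins that bind the PDZ domains of the Dlg proteins or are held with them, 16 were higher and 4 lower in IgG RIP than in Input, and 10 and 1 in CaMKIIβ RIP (13 and 1 without replicate 2). Their median log2 fold changes were 0.34 and 0.28. In IgG RIP 66.7% of this list passed and in CaMKIIβ RIP 36.7%, against 38.7% and 8.45% of all genes tested. Neither this list nor the next was matched for exon length, with which calls rose. In IgG RIP the smallest p belonged to the glial potassium channel Kcnj10 (1.09 ± 0.06), the obligatory NMDA receptor subunit Grin1 (1.02 ± 0.08), the adhesion protein Lrrc4b (0.95 ± 0.08) and Nlgn2, the neuroligin of inhibitory synapses (0.81 ± 0.07). Of 30 cytoplasmic partners, 18 were higher and 6 lower in IgG RIP, and 13 and 1 in CaMKIIβ RIP (18 and 4 without replicate 2), with medians of 0.57 and 0.53. These were 80% and 46.7% of the list, against the same shares of all genes tested (18.7% of all genes without replicate 2). Among the partners the MAGUK-binding scaffold Dlgap3 (1.15 ± 0.07), the microtubule-associated Map1a (1.10 ± 0.07), the kinesin Kif1b (1.27 ± 0.06) and neuronal nitric oxide synthase Nos1 (1.17 ± 0.08) rose in IgG RIP.

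The genes of proteins that assemble on Akap5 were mixed in direction. Of 20 tested, 13 were higher and 5 lower in IgG RIP than in Input, with a median of 0.31, and 2 were higher and 0 lower in CaMKIIβ RIP, with a median of 0.24 (9 and 0 without replicate 2). Those past the threshold were 90% and 10% of the list, where 38.7% and 8.45% of all genes tested were. This list, like the next, was not matched for exon length. The calcineurin regulatory subunit Ppp3r1 (-1.34 ± 0.10) and the catalytic subunit Ppp3cb (-0.57 ± 0.06) fell in IgG RIP, as Akap5 did. The adenylyl cyclases Adcy8 (0.86 ± 0.08) and Adcy5 (0.72 ± 0.07) rose. In CaMKIIβ RIP, Adcy8 (0.82 ± 0.14) and Adcy5 (0.91 ± 0.18) were the 2 that rose, and Ppp3r1 was at -0.99 ± 0.25 without passing (adjusted p = 0.0508 by edgeR). Of 15 other A-kinase anchoring proteins, 7 were higher and 4 lower in IgG RIP, with a median of 0.12. That was 73.3% of them, against 38.7% of all genes tested. Akap6, which anchors protein kinase A at the nuclear envelope, rose (1.15 ± 0.06), as did Akap12 (0.80 ± 0.11), the microtubule protein Map2 (0.47 ± 0.06) and ezrin, Ezr (0.73 ± 0.11). In CaMKIIβ RIP 1 of the 15 passed, again Akap6, at 0.95 ± 0.13, and without replicate 2 there were 5 higher and 1 lower. Of all genes tested 8.45% passed there, and 18.7% without replicate 2.

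Between the antibodies 0 genes of any of these 5 lists passed by edgeR, with or without CaMKIIβ RIP replicate 2. An unadjusted p under 0.05 by edgeR was reached by 1 of 22 MAGUK relatives, 3 of 30 receptors and adhesion partners, 1 of 30 cytoplasmic partners, 1 of 20 genes of the Akap5 complex and 0 of 14 other anchoring proteins. Over all 20566 genes tested, 721 reached it.

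A search of 8118 other protein-coding genes (average log2 CPM 4 or higher) looked for those with a like course over the libraries. Those whose log2 CPM over the 8 libraries was most like that of Dlg4 were Sphk2 (Pearson r = 0.979), a sphingosine kinase, Foxp4 (0.971), a forkhead transcription factor, and Diras1 (0.970), a Ras-like GTPase. For Dlg1 they were Anapc4 (0.983), a subunit of the anaphase-promoting complex, Tmem168 (0.982) and Cep20 (0.981). An r above 0.95 was reached by 33 genes for Dlg4 and 53 for Dlg1. These values describe 8 points that fall into Input and RIP and share scaling factors, and no p is attached to them.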

How the data were processed

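The authors deposited raw counts per gene for 8 libraries. Per the submitters' processing notes the build was GRCm38.p6 and the tools were STAR 2.7.3a, featureCounts 2.0.1, Trim Galore 0.6.4 and cutadapt 2.10. Strand setting, duplicates and the treatment of reads with several positions are not given in the sources used here. Columns were mapped to libraries by name, and 0 were left over.

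Ensembl genes were named by RefSeq genes on GRCm38.p6 with at least 0.5 of the joint span shared in a mutual best match, and no rival reaching 0.8 of that share. This named 34132 of 55401 genes, with 96.2% of counts, and all 5 members, at 92.7% to 99.98% of the span.

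Each comparison was fitted on its own libraries over all genes with edgeR 4.0.16 in R 4.3.3 (TMM, robust quasi-likelihood, filterByExpr at count 10 and total 15). The threshold was an adjusted p of 0.05 (Benjamini-Hochberg). Genes were named by rule: the 5 members, at most 4 genes a list by smallest p (1 is not reported here), and the 3 genes most like Dlg4 and Dlg1 (log2 of CPM plus 0.5). Marker lists covered telencephalon, granule cells, Purkinje cells, astrocytes, oligodendrocytes, microglia and vessels. In IgG RIP against Input the numbers of markers past the threshold as higher and lower were 5 and 2 of 10, 3 and 2 of 9, 2 and 3 of 6, 5 and 0 of 5, 2 and 2 of 4, 1 and 1 of 3, and 3 and 0 of 4. Of all genes tested, 20.1% were higher and 18.7% lower. The members and lists were chosen with earlier results of these data known.

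Alternatives were scaling by library size, RLE or upper quartile, no or a stricter count filter, DESeq2 1.42.0, limma-voom (limma 3.58.1), a joint fit of the 8 libraries, a test against a 1.5-fold change, the replicate block, removal of a loess trend on exon length (span 0.5) and each library left out. TMM without the mitochondrial genome and counts of the gene lists without CaMKIIβ RIP replicate 2 were chosen after seeing the data. Python 3.11.15 with pandas 2.3.3 and matplotlib 3.10.9 drew the figures.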

Additional observations from a re-analysis of the deposited data

How the results depend on the processing

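In CaMKIIβ RIP against IgG RIP, 0 of the 5 genes passed under any alternative run. Values near 0 changed sign when a library was left out, over ranges of -0.065 to 0.037 for Dlg1 and -0.055 to 0.0012 for Dlg3. Akap5, at -0.30 in the main fit, ran from -0.57 to 0.046. Of the fits with a library left out, its value was positive only without CaMKIIβ RIP replicate 2. With the ratio of Dlg4 to Dlg2 in place of Dlg4 to Dlg1 the difference was 0.053. In CaMKIIβ RIP against Input, the count of genes past the threshold was 1 in place of 0 with library size alone (Dlg1), DESeq2 (Dlg4), all 8 libraries in one fit (Dlg1) and the replicate block (Akap5, -1.16, adjusted p = 0.0366 by edgeR), and 0 to 1 with a library left out. Dlg2 turned positive there with RLE (0.027), upper quartile (0.027), DESeq2 (0.027), no count filter (0.056) and the stricter filter (0.0066), and ran from -0.073 to 0.11 with a library left out. In IgG RIP against Input the count was 3 in place of 5 with library size alone, where Dlg2 was at -0.035, 1 in the fit of all 8 libraries, 0 at a fold change of at least 1.5, and 2 to 5 with a library left out. The other alternatives run, TMM without the mitochondrial genome among them, gave 5. With the replicate block it was 5 as well; the deviations of same-numbered libraries had r of -0.15 to 0.010 for the 3 pairs of RIP libraries, 0.30 and 0.14 for CaMKIIβ RIP with Input and -0.054 and 0.083 for IgG RIP with Input, so pairing by number was not established (2 pairs with Input are too few to show it), and the block leaves out RIP replicate 3 where Input has none. The difference in the log2 ratio of Dlg4 to Dlg1 ran from -0.13 to -0.040 between antibodies, from 0.46 to 0.81 in CaMKIIβ RIP against Input and from 0.54 to 0.89 in IgG RIP against Input with a library left out.

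Over all genes, the 1868 calls in CaMKIIβ RIP against Input became 3448 with DESeq2, 2866 without a filter, 3833 with all libraries, 3718 with the block, 103 at 1.5-fold and 0 to 4089 with a library left out (0 without CaMKIIβ RIP replicate 1, and 845 and 400 without Input replicate 1 or 2), and 683 were higher and 1361 lower with library size alone, against 1117 and 751. The 8653 in IgG RIP against Input became 3676 with all libraries, 2099 at 1.5-fold and 5659 without Input replicate 2. The causes were not tested. With 2 Input libraries, the spread of Input rests on 1 difference, and a fit without 1 of them assumes that the lone Input library varies like the RIP group.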
